A study of Mus musculus with 11 samples.

Results

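Mitosis and cytokinesis were followed through 37 genes for cyclins, kinases, kinetochore and spindle proteins and proteins of cell separation. Each was read from 1 probe set, of those that carry its symbol alone the one whose mean over the 11 arrays was highest. Of the 37, 36 were measured among 18193 genes in all. Ccnb1, the gene of cyclin B1, had no probe set with its symbol alone and was not analysed here. The cells came from muscle of Pax3GFP/+ mice on the C57BL/6J background and were gated in flow cytometry on green fluorescent protein (GFP), with dead cells removed by propidium iodide. All groups share this genotype, in which GFP is made from 1 Pax3 allele and marks cells in which the Pax3 locus is active, above all satellite cells, the stem cells of skeletal muscle. Mice were 1 day old (P1, 4 arrays), 12 days old (P12, 4 arrays) or 28 days old (P28, 3 arrays). In the labels the P1 and P12 cells are proliferating satellite cells of trunk muscle, and the P28 cells are satellite cells from 3 muscle groups, abdominal, pectoral and intercostal. Arrays are labelled biological replicates without the number of animals behind each, so p-values measure the spread between these arrays.

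Mitosis is driven by Cdk1 bound to A- and B-type cyclins. The mitotic kinases then build the spindle and watch over the attachment of kinetochores, the protein plates by which chromosomes hold microtubules. The anaphase-promoting complex ends mitosis by marking cyclins for destruction, and the central spindle and a contractile ring then divide the cell. Transcripts of these genes are made mainly in late S phase, G2 and M phase, so their level in a bulk sample depends on the share of cells in division. Satellite cells divide in the first postnatal weeks, while muscle grows, and later become quiescent.

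Every gene measured had its highest mean at P12 (36 of 36). On the log2 RMA scale, on which 1 unit is a doubling, the mean of the 36 genes was 8.26 ± 0.33 at P1 (SD, n = 4), 9.19 ± 0.27 at P12 (n = 4) and 7.79 ± 0.49 at P28 (n = 3). From P1 to P12 the level of 25 genes rose and of 0 fell (0 also at an unadjusted p under 0.05), with a median change of 0.94, or 1.92-fold. From P12 to P28 it fell for 34 genes and rose for 0 (0 also at an unadjusted p under 0.05), with a median change of -1.37, or 2.58-fold down. In P28 against P1 it fell for 13 genes and rose for 1, Ube2c, with a median change of -0.48. These are calls by limma at an adjusted p under 0.05, and each array is a pool of cells, so fewer dividing cells and less RNA per cell cannot be told apart. Among all 18193 genes tested, 6.57% passed in P12 against P1 (4.53% up, 2.04% down), 31.4% in P28 against P12 (15.7% up, 15.7% down) and 36.6% in P28 against P1 (20.1% up, 16.4% down), with medians of 0.02, -0.03 and -0.02. The comparisons share arrays, the successive steps those of P12.

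**Figure D1:**
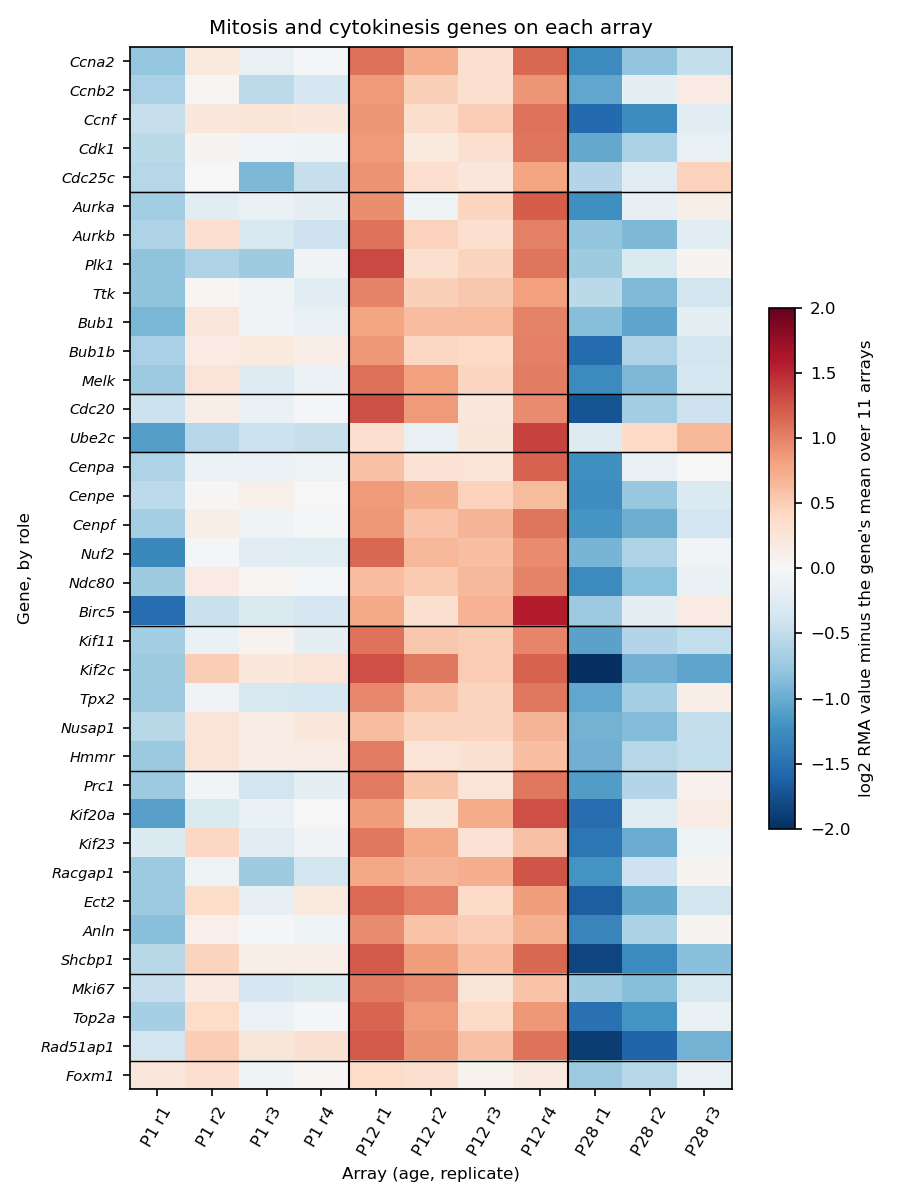
Level of 36 mitosis and cytokinesis genes (rows, grouped by role with horizontal lines) on 11 arrays (columns), as the log2 RMA value minus the gene's mean over all arrays, with red above and blue below that mean. The P12 columns are red in nearly all rows, and P1 replicate 1 and P28 replicate 1 are the bluest columns of their ages.

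The arrays of an age differed as a set. The mean of the 36 genes was 7.78, 8.55, 8.32 and 8.38 on the P1 arrays, 9.41, 9.01, 8.91 and 9.44 on the P12 arrays, and 7.30, 7.78 and 8.28 on the P28 arrays. Each P12 array stood above each P1 and P28 array. P28 replicates 2 and 3 lay within the range of P1, replicate 2 at its lower edge. P1 replicate 1 was the lowest P1 array for 34 of the 36 genes, and P28 replicate 1 the lowest P28 array for 32. P28 replicate 3 was the highest P28 array for 35 genes. At P12, replicates 1 and 4 were the highest for 19 and 17 genes, and replicates 2 and 3 the lowest for 14 and 22. P28 replicate 1 was below every P1 array for 29 genes, P28 replicate 2 for 20 and P28 replicate 3 for 4, while P28 replicate 3 was above every P1 array for 11.

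Array by array, the step from P1 to P12 was a near complete separation. All 4 P12 arrays exceeded all 4 P1 arrays for 33 of 36 genes, against 7.34% of all genes tested (4.58% the other way round), and the exceptions were Hmmr, Kif23 and Foxm1. All 3 P28 arrays lay below all 4 P12 arrays for 33 genes, against 19.4% of all genes (17.5% above), and the exceptions were Cdc25c, Aurka and Ube2c. For 30 genes the P12 arrays stood above every other array. P28 arrays lay below all P1 arrays for 4 genes, Kif2c, Shcbp1, Rad51ap1 and Foxm1, and above all P1 arrays for Ube2c, against 20.1% and 21.6% of all genes. By age means, the order was P12, P1, P28 for 31 genes and P12, P28, P1 for 5, Ccnb2, Cdc25c, Plk1, Ube2c and Birc5. The difference between P28 and P1 changed sign for Ccnb2 after median centring (-0.087) and after quantile normalization (-0.16). A moderated F test over the 3 ages passed for all 36 genes measured and for 39.0% of all genes.

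**Figure D2:**
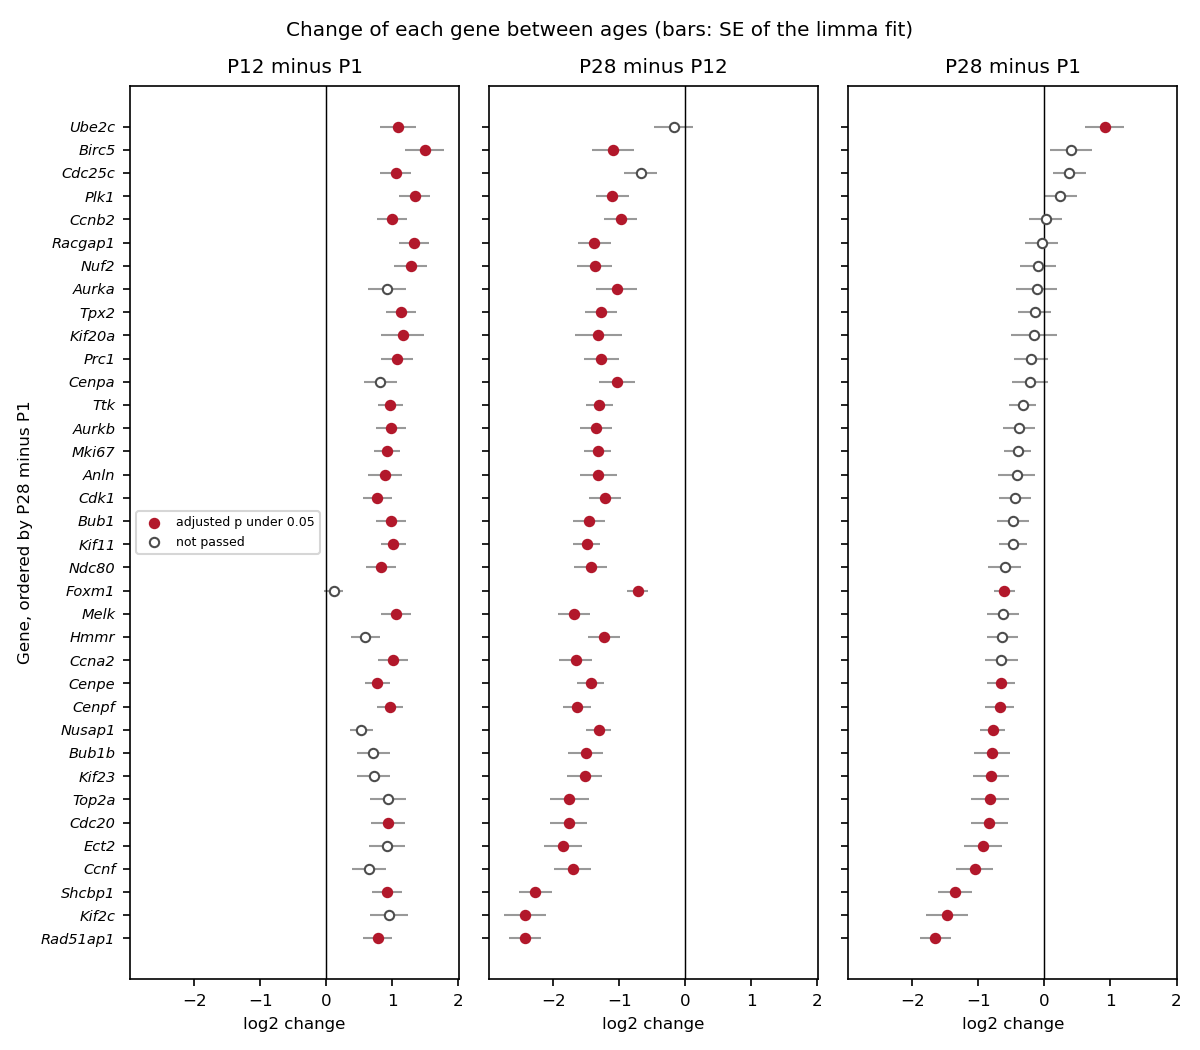
Log2 change of each gene (rows, ordered by P28 minus P1) between ages in 3 panels, with bars for the SE of the limma fit and filled points where the adjusted p was under 0.05. All changes of P12 minus P1 lie right of 0 and all of P28 minus P12 left of it, while P28 minus P1 runs from -1.65 (Rad51ap1) to 0.91 (Ube2c).

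Since these genes moved together, the sequence before their start sites is shown for those with the core of the cell cycle homology region, TTTGAA, lying wholly within the 30 bases before the start. This element is bound by the MuvB complex, which represses mitotic genes in resting cells and activates them, with B-Myb and Foxm1, in dividing ones, and it often stands near a CCAAT box, bound by NF-Y. Rad51ap1 is added as a gene with no TTTGAA in its window. Each sequence is the 100 bases that end at the base before the annotated start, 5′ to 3′ on the gene's strand, from RefSeq on GRCm38.p6. Capitals mark TTTGAA or its reverse complement TTCAAA, and CCAAT or its reverse complement ATTGG.
Cdk1, chr10:69352913-69353012, minus strand: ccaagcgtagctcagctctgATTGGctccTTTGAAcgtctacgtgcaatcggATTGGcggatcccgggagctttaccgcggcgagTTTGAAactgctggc
Ccnf, chr17:24251410-24251509, minus strand: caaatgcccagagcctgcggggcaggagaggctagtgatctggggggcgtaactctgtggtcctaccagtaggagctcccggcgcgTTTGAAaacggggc
Cdc20, chr4:118437344-118437443, minus strand: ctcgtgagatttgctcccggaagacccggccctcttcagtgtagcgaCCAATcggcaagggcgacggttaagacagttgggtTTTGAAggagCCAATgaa
Ube2c, chr2:164769829-164769928, plus strand: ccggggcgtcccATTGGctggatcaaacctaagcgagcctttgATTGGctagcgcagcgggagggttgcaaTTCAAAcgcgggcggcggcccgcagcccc
Kif11, chr19:37376282-37376381, plus strand: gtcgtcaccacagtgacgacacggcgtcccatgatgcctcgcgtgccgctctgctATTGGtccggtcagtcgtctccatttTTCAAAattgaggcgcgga
Top2a, chr11:99024190-99024289, minus strand: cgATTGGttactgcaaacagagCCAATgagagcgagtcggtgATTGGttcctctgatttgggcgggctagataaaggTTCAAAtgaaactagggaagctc
Rad51ap1, chr6:126939588-126939687, minus strand: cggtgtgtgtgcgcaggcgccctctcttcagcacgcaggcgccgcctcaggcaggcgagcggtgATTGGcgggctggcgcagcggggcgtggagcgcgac

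RefSeq windows of 300 bases, 250 before to 50 after the start, were matched for 30 of the 37 genes. TTTGAA on either strand occurred in 22 of the 30 (73.3%), against 18.1% of 27025 windows in the table and 13.3% of 14452 windows of genes on the array. Restricted to the last 60 bases before the start and the 50 after it, the count was 20 of 30 (66.7%), against 5.46% and 3.68%. CCAAT occurred in 23 of 30 windows (76.7%), against 37.9% and 38.2%. The variant TTCGAA, which reads the same on both strands, occurred in 3 of 30, against 1.57% of all windows. The E2F-type letters TTTCCCGC and TTTGGCGC, searched for on both strands, occurred in 0 of 30 windows, against 1.11% and 0.537% of all windows. Their shares in windows of genes on the array were 1.7% and 0.851%. With letters this rare, 30 windows are too few for the count of 0 to show that they are lacking. A match describes the letters in the window and is not evidence of a bound site. In the stretches above, the leftmost base of the TTTGAA match nearest to the start lay at -15 for Cdk1, -14 for Ccnf, -18 for Cdc20, -29 for Ube2c, -19 for Kif11 and -23 for Top2a, counted from the start, and Rad51ap1 held only an ATTGG.

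Of the mitotic cyclins, Cdk1 and its activator, 4 of 5 rose to P12 and 4 of 5 fell to P28. Ccna2, the cyclin A2 that binds Cdk2 in S phase and Cdk1 at entry into mitosis, had values of 9.09, 10.06, 9.71 and 9.83 at P1, 10.96, 10.58, 10.18 and 11.01 at P12 and 8.59, 9.08 and 9.39 at P28. The P12 arrays were all above the P1 arrays, and the P28 arrays were all below P12 but overlapped P1. The change was 1.01 ± 0.23 (SE, adjusted p = 0.0183) to P12 and -1.66 ± 0.25 (SE, adjusted p = 0.00015) from P12 to P28. In P28 against P1 it was -0.65, which did not pass (adjusted p = 0.0532). The rise of Ccna2 did not pass without P12 replicate 1 or without P12 replicate 4, with a range of 0.81 to 1.18 over all arrays left out. Its other probe set changed by 1.34 to P12 (adjusted p = 0.00108) and -1.19 to P28 (adjusted p = 0.000492). In P28 against P1 that probe set changed by 0.14 (adjusted p = 0.625).

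Ccnf, an F-box protein named as a cyclin that serves a ubiquitin ligase, had values of 6.33, 6.997, 7.04 and 7.01 at P1, 7.68, 7.14, 7.28 and 7.87 at P12 and 5.23, 5.54 and 6.58 at P28. P1 replicate 1 was the lowest P1 array by a wide gap, and P28 replicates 1 and 2 lay below every P1 array while replicate 3 did not. Its change of 0.65 (adjusted p = 0.161) in P12 against P1 did not pass, although the arrays did not overlap. It fell by P28, with changes of -1.71 ± 0.28 (SE, adjusted p = 0.000315) against P12 and -1.06 ± 0.28 (SE, adjusted p = 0.00823) against P1. Cdk1, the kinase itself, rose by 0.77 ± 0.22 (SE, adjusted p = 0.049) and then changed by -1.22 ± 0.24 (SE, adjusted p = 0.00117). Ccnb2, cyclin B2, rose by 1.00 ± 0.23 (SE, adjusted p = 0.0181), changed by -0.98 ± 0.25 (SE, adjusted p = 0.00719) to P28 and had a difference of 0.02 (adjusted p = 0.961) between P28 and P1. Cdc25c, the phosphatase that removes inhibitory phosphates from Cdk1, rose by 1.05 ± 0.23 (SE, adjusted p = 0.0156), while its change of -0.68 (adjusted p = 0.0539) to P28 did not pass. The rises of Ccnb2 and Cdc25c did not hold without P1 replicate 3, P12 replicate 1 or P12 replicate 4 (ranges 0.90 to 1.13 and 0.91 to 1.21). With the Gapdh 3' minus 5' difference, a measure of RNA integrity and amplification, as a covariate the fall of Ccnb2 to P28 did not pass (-0.95, adjusted p = 0.0583). The rise of Cdk1 did not hold without any 1 of 7 arrays, P1 replicates 1 to 4, P12 replicates 1 and 4 and P28 replicate 2 (range 0.62 to 0.91). With probe sets of types that may cross-hybridise left out, another probe set of Cdc25c was used, and its rise of 0.67 did not pass (adjusted p = 0.0529).

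All 7 mitotic kinase genes fell from P12 to P28, and 5 of the 7 had risen to P12. Ttk, the kinase that starts the spindle checkpoint at unattached kinetochores, had values of 6.27, 7.12, 7.0003 and 6.87 at P1, 8.07, 7.56, 7.62 and 7.89 at P12 and 6.54, 6.20 and 6.72 at P28. P1 replicate 1 and the P28 arrays were low together, and P12 stood clear of both ages. Its change was 0.97 ± 0.19 (SE, adjusted p = 0.00717) to P12 and -1.30 ± 0.20 (SE, adjusted p = 0.000188) from P12 to P28, and -0.33 (adjusted p = 0.222) in P28 against P1.

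Melk, a kinase made mainly in dividing cells, had values of 7.40, 8.38, 7.87 and 8.003 at P1, 9.23, 8.95, 8.55 and 9.14 at P12 and 6.86, 7.23 and 7.77 at P28. The P12 arrays were again above all others, with P12 replicate 3 the lowest of them. Melk changed by 1.06 ± 0.22 (SE, adjusted p = 0.0121) and then -1.68 ± 0.24 (SE, adjusted p = 9.82e-05). Plk1, which acts at centrosomes, kinetochores and the cleavage site, rose by 1.34 ± 0.23 (SE, adjusted p = 0.0038) and changed by -1.10 ± 0.25 (SE, adjusted p = 0.00382) to P28. Aurkb, the kinase of the chromosomal passenger complex, rose by 0.98 ± 0.22 (SE, adjusted p = 0.0184) and changed by -1.36 ± 0.24 (SE, adjusted p = 0.000597). Bub1, a checkpoint kinase of the kinetochore, rose by 0.98 ± 0.22 (SE, adjusted p = 0.0176) and changed by -1.46 ± 0.24 (SE, adjusted p = 0.000338). Without P12 replicate 1 or P12 replicate 4 the rises of Aurkb and Bub1 did not pass, nor did that of Aurkb without P1 replicate 3 or 4 (ranges 0.85 to 1.17 and 0.75 to 1.13).

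Aurka, the centrosomal Aurora kinase, and Bub1b, the checkpoint protein BubR1, did not pass in P12 against P1, with changes of 0.92 (adjusted p = 0.0743) and 0.71 (adjusted p = 0.106). Both fell from P12 to P28, Aurka with -1.04 ± 0.31 (SE, adjusted p = 0.0202) and Bub1b with -1.51 ± 0.27 (SE, adjusted p = 0.000587). The Aurka arrays of P12 and P28 overlapped, and its call did not hold without P12 replicate 1, P12 replicate 4 or P28 replicate 1 (range -1.31 to -0.64). Among the kinases on their main probe sets, Bub1b was the 1 that also fell in P28 against P1, with -0.80 ± 0.27 (SE, adjusted p = 0.0305). That call ended without any 1 of 4 arrays, P1 replicates 2, 3 and 4 and P28 replicate 1 (range -1.03 to -0.45). It also ended with another probe set, used when types that may cross-hybridise were left out (-0.60, adjusted p = 0.109). With the mean of probe sets, Bub1 (-0.85, adjusted p = 0.00745) and Ttk (-0.46, adjusted p = 0.0241) fell against P1 too. Their other probe sets, at lower mean levels of 4.90 and 4.45, changed by -1.22 and -0.59, and both passed.

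The pair of genes for the anaphase-promoting complex parted after P12. Cdc20, the activator that brings the complex its substrates at anaphase, had values of 9.55, 10.12, 9.86 and 9.97 at P1, 11.25, 10.84, 10.21 and 10.93 at P12 and 8.26, 9.29 and 9.57 at P28. Cdc20 was above P1 on all P12 arrays, and P28 replicate 1 was far below the other P28 arrays. The change was 0.93 ± 0.26 (SE, adjusted p = 0.0446) to P12, -1.77 ± 0.28 (SE, adjusted p = 0.000231) from P12 to P28 and -0.83 ± 0.28 (SE, adjusted p = 0.0298) in P28 against P1. With the replicate number as a block, the change of Cdc20 in P12 against P1 stayed at 0.93 and did not pass (adjusted p = 0.057), and that in P28 against P1 was -0.80 (adjusted p = 0.0548). The rise also did not hold without any 1 of 7 arrays, all except P12 replicate 3 among P1 and P12 (range 0.78 to 1.13), nor the fall against P1 without P1 replicates 2, 3 or 4 or P28 replicate 1 (range -1.10 to -0.44). When probe sets of types that may cross-hybridise were left out, the one then used for Cdc20 gave 0.77 to P12 (adjusted p = 0.0593) and -0.19 in P28 against P1 (adjusted p = 0.592), and neither passed. The fall of Cdc20 against P1 also did not pass with the mean of its probe sets (-0.51, adjusted p = 0.119), the array set (replicates 1 and 2 of P1 and P12 against all other arrays, split by their Gapdh difference) as a block (-0.73, adjusted p = 0.0849) or the Gapdh covariate (-0.65, adjusted p = 0.235).

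Ube2c, the ubiquitin-conjugating enzyme that works with the complex, had values of 8.56, 9.09, 9.24 and 9.21 at P1, 10.01, 9.52, 9.91 and 11.02 at P12 and 9.41, 10.07 and 10.33 at P28. The P28 arrays overlapped the P12 arrays and lay above every P1 array, the only such case of the 36 genes. Ube2c rose by 1.09 ± 0.28 (SE, adjusted p = 0.0294) to P12, did not pass from P12 to P28 with -0.18 (adjusted p = 0.698), and was higher in P28 than in P1 by 0.91 ± 0.30 (SE, adjusted p = 0.0271). The rise against P1 did not pass without P1 replicate 1, P28 replicate 2 or P28 replicate 3 (range 0.71 to 1.18). It also did not pass after a further quantile normalization (0.69), with the array set as a block (0.64) or with the Gapdh 3' minus 5' difference as a covariate (0.33). The rise to P12 did not pass without any 1 of 6 arrays, P1 replicates 1 to 4, P12 replicate 1 and P12 replicate 4 (range 0.79 to 1.28). Its level over the 11 arrays followed the mean of the other 35 genes least closely (r = 0.49), with Foxm1 next (0.75) and Melk and Ccna2 the closest (0.99 each), as a description over arrays that share ages.

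Centromere and kinetochore genes rose to P12 in 5 of 6 cases and fell to P28 in 6 of 6. Cenpf, a large kinetochore protein that accumulates in G2, had values of 8.08, 8.88, 8.67 and 8.74 at P1, 9.63, 9.32, 9.44 and 9.84 at P12 and 7.58, 7.78 and 8.38 at P28. No P12 array overlapped another age, and 2 of the 3 P28 arrays were below all P1 arrays. Its change was 0.96 ± 0.20 (SE, adjusted p = 0.0102), -1.64 ± 0.21 (SE, adjusted p = 4.36e-05) and, in P28 against P1, -0.68 ± 0.21 (SE, adjusted p = 0.0212). The last call did not hold without P1 replicate 2, P1 replicate 4, P28 replicate 1 or P28 replicate 2 (range -0.91 to -0.52). With the mean of its probe sets neither the rise (0.62, adjusted p = 0.0769) nor the fall against P1 (-0.22, adjusted p = 0.44) passed.

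Cenpe, the kinesin that carries chromosomes to the spindle equator, had values of 7.22, 7.77, 7.85 and 7.76 at P1, 8.60, 8.48, 8.22 and 8.39 at P12 and 6.51, 7.002 and 7.47 at P28. P1 replicate 1 was apart from the other P1 arrays and lay below P28 replicate 3. The change of Cenpe was 0.77 ± 0.19 (SE, adjusted p = 0.0249) to P12, -1.43 ± 0.21 (SE, adjusted p = 0.000102) to P28 and -0.66 ± 0.21 (SE, adjusted p = 0.0207) in P28 against P1. Its rise did not hold without any 1 of 5 arrays, P1 replicates 1 and 4 and P12 replicates 1, 2 and 4 (range 0.63 to 0.84). Its fall against P1 did not hold without any 1 of 5, P1 replicates 2, 3 and 4 and P28 replicates 1 and 2 (range -0.90 to -0.42), nor with the mean of probe sets (-0.55, adjusted p = 0.177) or the Gapdh 3' minus 5' difference as a covariate (-0.67, adjusted p = 0.0978).

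Nuf2 and Ndc80 make the complex that grips microtubules, and they rose by 1.28 ± 0.25 (SE, adjusted p = 0.00827) and 0.83 ± 0.23 (SE, adjusted p = 0.0409), then changed by -1.38 and -1.43. The rise of Ndc80 held without P1 replicate 2, P28 replicate 1 or P28 replicate 3, and not without any 1 of the other 8 arrays (range 0.64 to 0.93). Birc5, survivin, which places Aurora B at the centromere, had the largest rise of the 36 genes, 1.49 ± 0.29 (SE, adjusted p = 0.00865), and changed by -1.09 ± 0.32 (SE, adjusted p = 0.0164) to P28. Without P28 replicate 1 the fall of Birc5 did not pass (range -1.30 to -0.85). Cenpa, the histone H3 variant of centromeres, had a change of 0.82 (adjusted p = 0.0703) to P12, which passed with the replicate block (0.82, adjusted p = 0.0419). It fell to P28, with -1.04 ± 0.28 (SE, adjusted p = 0.00973), but not without P28 replicate 1 (range -1.26 to -0.66).

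Spindle motors and assembly factors all fell from P12 to P28 (5 of 5), while 2 of 5, Kif11 and Tpx2, had risen to P12. Kif11, the Eg5 kinesin that pushes spindle poles apart, had values of 7.36, 7.92, 8.13 and 7.87 at P1, 9.15, 8.60, 8.57 and 9.03 at P12 and 6.99, 7.48 and 7.57 at P28. The P12 arrays exceeded all P1 arrays, and P28 overlapped P1 only through P1 replicate 1. Its change was 1.02 ± 0.19 (SE, adjusted p = 0.00636) to P12, -1.49 ± 0.21 (SE, adjusted p = 7.38e-05) to P28 and -0.48 (adjusted p = 0.0851) in P28 against P1. Of its other probe sets, the one at a mean level of 8.04 changed by 1.12 to P12 and -1.40 to P28, and both passed. The one at 7.64 changed by 0.49 (adjusted p = 0.369) and -0.83 (adjusted p = 0.0516), and neither passed. Tpx2, which activates Aurora A on the spindle, rose by 1.13 ± 0.23 (SE, adjusted p = 0.00905) and changed by -1.28 ± 0.24 (SE, adjusted p = 0.000983). Averaged over its probe sets, Tpx2 had a change of 0.41 to P12, which did not pass (adjusted p = 0.0914), and its other 3 probe sets changed by 1.12, -0.24 and -0.39.

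Kif2c, a kinesin that takes microtubules apart at centromeres, had values of 7.25, 8.46, 8.18 and 8.22 at P1, 9.25, 9.02, 8.48 and 9.15 at P12 and 5.72, 7.004 and 6.91 at P28. All P28 arrays were below all P1 arrays, and P28 replicate 1 was lower than the others by more than 1 unit. It fell by P28, with -2.43 ± 0.32 (SE, adjusted p = 4.45e-05) against P12 and -1.48 ± 0.32 (SE, adjusted p = 0.00193) against P1. Its change to P12, 0.95 (adjusted p = 0.0683), did not pass, and with the replicate block it did (0.95, adjusted p = 0.0449). The main probe set of Kif2c is of a type that may cross-hybridise, and the probe set used when such types were left out gave -0.02 in P28 against P1 (adjusted p = 0.968) and -0.86 from P12 to P28 (adjusted p = 0.0601), and neither passed. The other 3 probe sets of Kif2c had changes of -0.02, -1.27 and -0.29 in P28 against P1, of which -1.27 passed (adjusted p = 0.0023). From P12 to P28 they changed by -0.86, -0.96 and -0.38, of which -0.96 passed (adjusted p = 0.0157).

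Nusap1, which bundles microtubules near chromosomes, and Hmmr, a protein of spindle poles, did not pass in P12 against P1, with 0.53 (adjusted p = 0.0902) and 0.59 (adjusted p = 0.132). Both fell from P12 to P28, with -1.31 ± 0.19 (SE, adjusted p = 0.00011) and -1.23 ± 0.24 (SE, adjusted p = 0.00122). Nusap1 also fell in P28 against P1, with -0.78 ± 0.19 (SE, adjusted p = 0.00482), and that call held whichever array was left out.

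Central spindle and cytokinesis genes fell from P12 to P28 in 7 of 7 cases, after 5 of 7 had risen. Racgap1, a subunit of centralspindlin, the complex that marks the cleavage plane, had values of 7.69, 8.31, 7.71 and 8.05 at P1, 9.19, 9.10, 9.13 and 9.66 at P12 and 7.21, 8.005 and 8.47 at P28. P12 replicates 1, 2 and 3 lay close together and replicate 4 above them, and the P28 arrays spread across the whole range of P1. The change was 1.33 ± 0.23 (SE, adjusted p = 0.00375) to P12 and -1.38 ± 0.25 (SE, adjusted p = 0.000686) to P28, and in P28 against P1 it was -0.04 (adjusted p = 0.909). Another probe set of Racgap1, at a mean level of 7.92, rose by 1.00 to P12 (adjusted p = 0.0288). Its changes of -0.50 from P12 to P28 (adjusted p = 0.173) and 0.50 in P28 against P1 (adjusted p = 0.164) did not pass. Kif23, the motor subunit of the same complex, had a change of 0.72 (adjusted p = 0.104) to P12 that did not pass, and fell to P28 with -1.52 ± 0.27 (SE, adjusted p = 0.000547). It fell against P1 too, with -0.81 ± 0.27 (SE, adjusted p = 0.0286), though not without P1 replicate 2, P1 replicate 4, P28 replicate 1 or P28 replicate 2 (range -1.18 to -0.51). That fall did not pass with the array set as a block (-0.64, adjusted p = 0.0997) or with the Gapdh 3' minus 5' difference as a covariate (-0.51, adjusted p = 0.316).

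Shcbp1, a partner of centralspindlin at the midbody, had values of 7.87, 8.88, 8.55 and 8.57 at P1, 9.66, 9.27, 9.03 and 9.58 at P12 and 6.59, 7.16 and 7.59 at P28. Every P28 array was below every P1 array, and P12 was above both. Shcbp1 changed by 0.92 ± 0.23 (SE, adjusted p = 0.0281) to P12, by -2.27 ± 0.25 (SE, adjusted p = 1.05e-05) to P28 and by -1.35 ± 0.25 (SE, adjusted p = 0.000657) in P28 against P1. Only its rise depended on single arrays, since it did not hold without any 1 of 5, P1 replicates 1, 3 and 4 and P12 replicates 1 and 4 (range 0.72 to 1.05).

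Ect2, which activates RhoA at the cleavage site, fell to P28 with -1.85 ± 0.29 (SE, adjusted p = 0.000214) and against P1 with -0.93 ± 0.29 (SE, adjusted p = 0.021), after a change of 0.92 (adjusted p = 0.055) that did not pass. Its fall against P1 did not hold without P1 replicate 2, P1 replicate 4, P28 replicate 1 or P28 replicate 2 (range -1.25 to -0.61), nor with the array set as a block (-0.86, adjusted p = 0.0567) or the Gapdh covariate (-0.76, adjusted p = 0.18). Prc1, which bundles the microtubules of the central spindle, rose by 1.07 ± 0.24 (SE, adjusted p = 0.0169), though not without P12 replicate 1 or 4 (range 0.94 to 1.22), and changed by -1.27 ± 0.26 (SE, adjusted p = 0.00175). Kif20a, a motor that brings Plk1 there, rose by 1.16 ± 0.33 (SE, adjusted p = 0.0468) and changed by -1.32 ± 0.35 (SE, adjusted p = 0.0101), the latter not without P28 replicate 1 (range -1.66 to -0.82). Anln, anillin, a scaffold of the contractile ring, rose by 0.89 ± 0.25 (SE, adjusted p = 0.049) and changed by -1.32 ± 0.27 (SE, adjusted p = 0.00196). The rise of Kif20a did not pass without any 1 of 8 arrays, P1 replicates 1 to 4, P12 replicates 1, 3 and 4 and P28 replicate 2 (range 0.92 to 1.34). That of Anln did not pass without any 1 of 9, all P1 and P12 arrays and P28 replicate 2 (range 0.68 to 1.00).

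The remaining genes act on chromosomes or their transcription. Mki67, the Ki-67 protein that coats mitotic chromosomes and is the usual marker of dividing cells, had values of 11.18, 11.82, 11.30 and 11.37 at P1, 12.68, 12.58, 11.88 and 12.21 at P12 and 10.93, 10.79 and 11.32 at P28. P12 arrays were above all others, and P28 replicate 3 fell among the P1 arrays. Its change was 0.92 ± 0.19 (SE, adjusted p = 0.0107) to P12, -1.33 ± 0.21 (SE, adjusted p = 0.000189) to P28 and -0.41 (adjusted p = 0.138) in P28 against P1. Top2a, the topoisomerase that untangles sister chromatids, had a change of 0.93 (adjusted p = 0.0542) to P12 that did not pass, and fell to P28 with -1.76 ± 0.29 (SE, adjusted p = 0.000349) and against P1 with -0.82 ± 0.29 (SE, adjusted p = 0.0389). The last call did not pass with the replicate block (-0.80, adjusted p = 0.065), nor without any 1 of 5 arrays, P1 replicates 2, 3 and 4 and P28 replicates 1 and 2 (range -1.22 to -0.54). It also did not pass with the array set as a block (-0.74, adjusted p = 0.0985), with the Gapdh covariate (-0.66, adjusted p = 0.249), in a fit of the 2 ages alone (adjusted p = 0.0585) or with a robust trended prior (adjusted p = 0.0517).

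Rad51ap1, a protein of DNA repair, had values of 7.44, 8.31, 8.07 and 8.13 at P1, 9.04, 8.72, 8.40 and 8.90 at P12 and 5.92, 6.22 and 6.87 at P28. All P28 arrays were below all P1 arrays, and all P12 arrays were above both. It had the smallest adjusted p of the 36 genes in both comparisons of P28, with changes of -2.43 ± 0.24 (SE, adjusted p = 3.52e-06) against P12 and -1.65 ± 0.24 (SE, adjusted p = 7.51e-05) against P1. The other 3 probe sets of Rad51ap1 changed by -0.07, -0.22 and -0.05 in P28 against P1, and the mean of its probe sets by -0.50, which did not pass. Its rise to P12, 0.78 ± 0.22 (SE, adjusted p = 0.0473), did not pass with the replicate block (0.78, adjusted p = 0.055), nor without any 1 of 7 arrays, P1 replicates 1, 3 and 4, P12 replicates 1, 2 and 4 and P28 replicate 2 (range 0.60 to 0.90).

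Foxm1, the transcription factor that drives many of these genes in G2, had values of 7.85, 7.97, 7.54 and 7.65 at P1, 7.995, 7.95, 7.70 and 7.81 at P12 and 6.90, 7.05 and 7.47 at P28. P1 and P12 overlapped, while each P28 array was below each array of the other ages. The change to P12, 0.11 ± 0.15 (SE, adjusted p = 0.728), was the smallest of the 36 genes and did not pass. Foxm1 fell to P28, with -0.72 ± 0.16 (SE, adjusted p = 0.00274) against P12 and -0.61 ± 0.16 (SE, adjusted p = 0.00709) against P1. With the Gapdh 3' minus 5' difference as a covariate the changes were -0.51 and -0.39, and neither passed. Of its other 3 probe sets, 1 changed by 1.01 to P12 and -1.40 to P28, both of which passed, 1 by 0.29 and -0.87, and 1, near background, by 0.02 and -0.18.

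Beyond the probe sets used, the 36 genes had 43 others, in 24 of the genes. Of these, 11 rose in P12 against P1, 27 fell in P28 against P12 and 11 fell in P28 against P1. The sign was that of the main probe set in 37, 42 and 38 of the 43. Their median changes were 0.49, -0.85 and -0.29. Each is smaller in size than the median of the main probe sets, which were chosen for a high mean.

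The count of rises from P1 to P12 depended on single arrays more than that of falls to P28. It was 25 with all arrays and 16, 14 and 15 without P1 replicates 1, 3 and 4. It was 10 without P12 replicate 1 and also without P12 replicate 4. At an unadjusted p under 0.05, 35 genes were up with all arrays and 33, 35, 35, 33 and 34 in these fits. Among all 18193 genes, 6.57% passed with all arrays, and 6.71%, 3.73%, 3.55%, 3.6% and 3.51% in the same order. Except without P1 replicate 1, the lower counts thus went with fewer calls among all genes. Between replicates 1 and 2 of each age, which had the larger Gapdh 3' minus 5' differences, the median change was 1.07, 0 genes passed in limma and 35 had an unadjusted p under 0.05. Between replicates 3 and 4 the median was 0.82 and 15 genes passed. In those fits of 4 arrays, 0.704% and 4.99% of all genes passed. The calls of 10 genes held whichever array was left out, Birc5, Cenpf, Kif11, Melk, Mki67, Nuf2, Plk1, Racgap1, Tpx2 and Ttk, though those of Cenpf and Tpx2 did not pass with the mean of their probe sets. With a further quantile normalization 15 genes rose, the calls lost being those of Anln, Ccna2, Cdc20, Cdk1, Cenpe, Kif20a, Ndc80, Rad51ap1, Shcbp1 and Ube2c, and the share of rises among all calls of the 18193 genes was then 47.7% in place of 69.0%.

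The falls from P12 to P28 numbered 30 to 35 whichever array was left out, and 30 of the 34 calls held in each case. The exceptions were Aurka, Birc5, Cenpa and Kif20a. In P28 against P1 the count of 13 falls became 20 without P1 replicate 1, 6 without P1 replicate 2, without P1 replicate 4 and without P28 replicate 1, and 8 without P28 replicate 2. The calls that held whichever array was left out were those of Ccnf, Foxm1, Kif2c, Nusap1, Rad51ap1 and Shcbp1, of which Foxm1 did not pass with the Gapdh covariate, Kif2c without the probe set types named for it and Rad51ap1 with the mean of its probe sets. After a further quantile normalization 21 genes fell against P1. Of all calls in the 18193 genes, 50.0% were rises in P28 against P12 and 55.0% in P28 against P1, and 38.1% and 41.6% after centring each array on its median, which moved the median of all genes in P28 against P1 from -0.02 to -0.13.

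**Figure D3:**
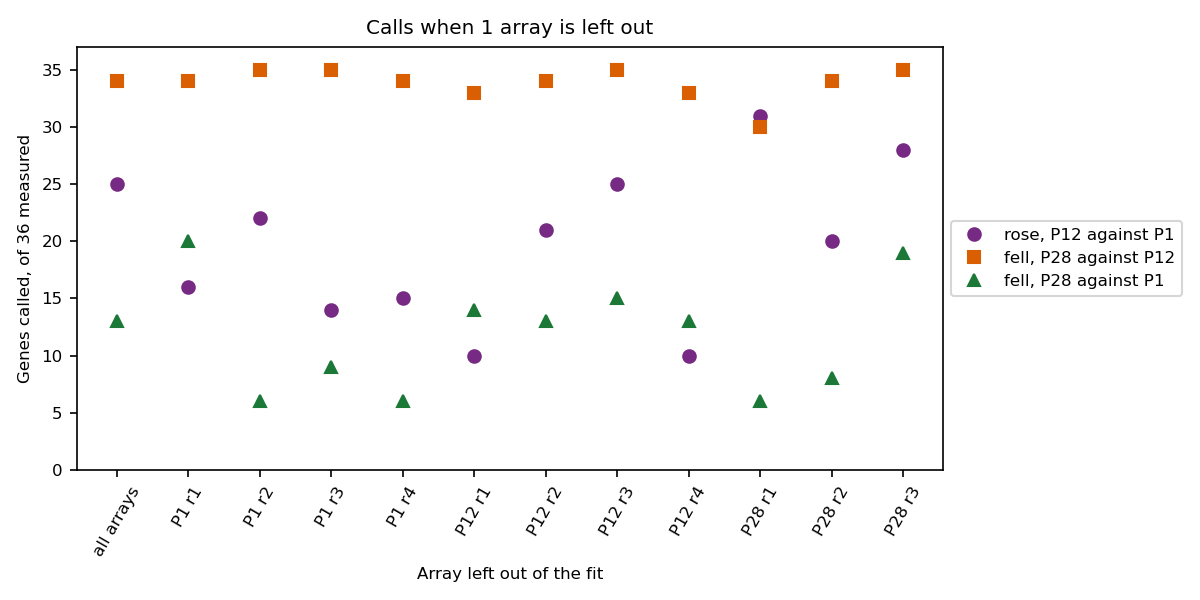
Number of the 36 genes called (vertical axis) in the fit of all arrays and in fits without each array in turn (horizontal axis), for rises in P12 against P1 (circles), falls in P28 against P12 (squares) and falls in P28 against P1 (triangles). Squares stay between 30 and 35, circles range from 10 to 31 and triangles from 6 to 20.

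P28 differed from the other ages in more than these genes, and age, muscles and a suffix in the internal sample names coincide for P28, so they cannot be told apart. The same names carry the code of P1, but the titles and ages state P28. The Gapdh 3' minus 5' difference was 0.79 to 0.99 at P28, 1.62 to 2.79 at P1 and 1.32 to 3.05 at P12. With it as a covariate, 32 genes fell from P12 to P28, 27 rose from P1 to P12 and 7 fell in P28 against P1. In that fit 22.8%, 10.5% and 28.5% of all genes passed in these comparisons, against 31.4%, 6.57% and 36.6% without the covariate. Every P28 array was lower in this difference than every other array, so its part in the P28 comparisons cannot be separated from age. Bacterial Trp controls, a gauge of background, averaged 3.50, and the 36 genes ranged from 5.23 to 12.68. Pax7, which defines satellite cells, was 10.75 ± 0.33 at P1, 10.78 ± 0.23 at P12 and 10.72 ± 0.18 at P28. Other satellite cell markers did not all stay level. Of the 12 in the list, 5 rose and 0 fell from P12 to P28, with a median change of 0.18.

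Markers of other cell types rose from P12 to P28 while the mitosis genes fell. All 8 neutrophil markers rose, with a median change of 4.70, as did 9 of 10 endothelial, 6 of 9 fibro-adipogenic, 6 of 9 pericyte and smooth muscle, 6 of 10 macrophage, 5 of 8 mast cell and 5 of 6 erythroid markers, and 0 of 8 Schwann cell and melanocyte markers by limma (1 at an unadjusted p under 0.05). The log2 of the summed neutrophil marker level was 9.03 to 10.79 at P1, 8.60 to 9.43 at P12 and 13.38 to 14.77 at P28. For erythroid markers it was 7.35 to 7.84, 7.82 to 8.39 and 10.32 to 12.60, for macrophage markers 10.42 to 11.11, 10.23 to 10.50 and 11.63 to 12.65, and for endothelial markers 9.38 to 10.16, 9.73 to 10.34 and 11.27 to 12.02. Fibro-adipogenic markers summed to 13.54 to 14.20, 13.59 to 14.18 and 14.27 to 14.80, and pericyte and smooth muscle markers to 12.76 to 13.40, 12.98 to 13.58 and 13.57 to 13.73. Mast cell markers summed to 8.77 to 9.28, 8.19 to 8.37 and 8.50 to 8.95. Satellite cell markers rose in 5 of 12 cases and fell in 0, and summed to 13.28 to 13.89, 13.51 to 13.88 and 14.38 to 14.59. Differentiating muscle markers rose in 6 of 10 cases and fell in 1, and summed to 13.25 to 13.76, 13.38 to 14.24 and 14.83 to 15.37. The neutrophil mean was 10.41, 10.45 and 9.15 on the P28 arrays, whose mitosis means were 7.30, 7.78 and 8.28. It was 7.28 on P1 replicate 1 against 5.53 to 5.65 on the other P1 arrays. On the P28 arrays the erythroid means were 7.73, 7.63 and 6.21 and the fibro-adipogenic means 11.08, 10.38 and 10.17. The endothelial means were 7.72, 8.44 and 8.03 and the macrophage means 7.39, 8.26 and 8.59. On P1 replicate 1 the macrophage mean was 6.64, against 6.93 to 6.99 on the other P1 arrays. The part of these cells in the fall of the mitosis genes was not tested.

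From P1 to P12, 0 markers of neutrophils, macrophages, endothelial, fibro-adipogenic, mast or erythroid cells rose by limma, with 1 erythroid marker and 0 of the others up at an unadjusted p under 0.05, while 3 fibro-adipogenic, 2 macrophage and 2 mast cell markers fell. Pericyte and smooth muscle markers rose in 2 of 9 cases and fell in 1, and satellite cell markers rose in 3 of 12.

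**Figure D4:**
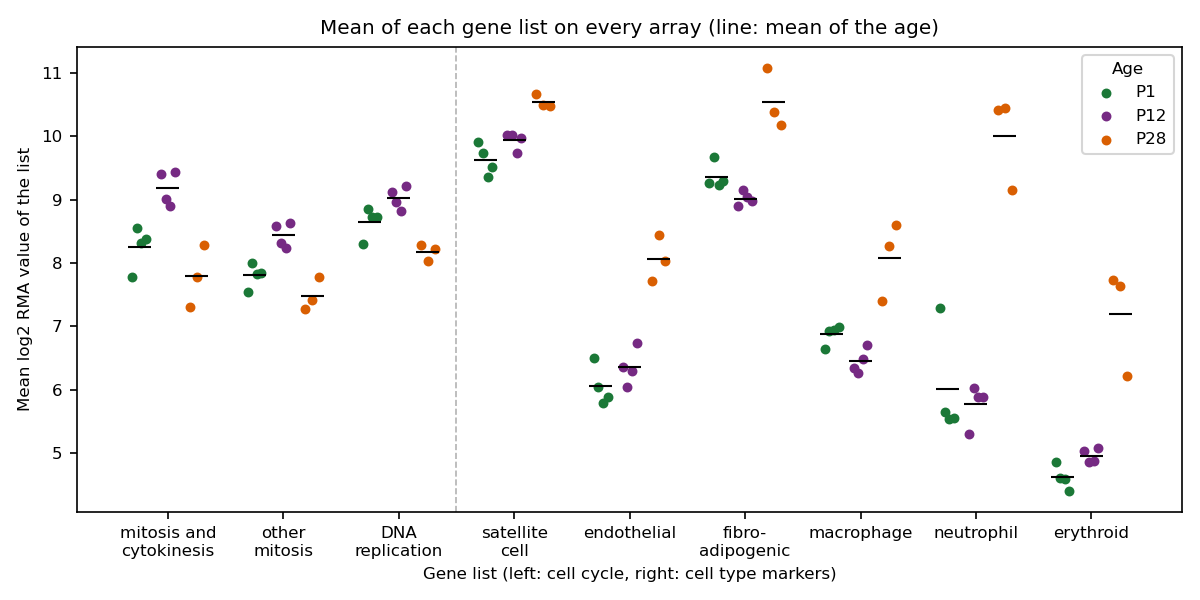
Mean log2 RMA value of gene lists (horizontal axis) on each array (points, coloured by age), with a line at the mean of each age. The 3 cell cycle lists on the left peak at P12, while all marker lists on the right, satellite cells included, have their highest mean at P28. P1 replicate 1 stands above the other P1 arrays for neutrophil markers, and also for satellite cell, endothelial and erythroid markers.

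Other genes of mitosis, from 7 lists that hold 111 measured genes in all, moved in the same directions with smaller medians. Of the 111, 50 rose in P12 against P1 (median 0.66), 88 fell and 2 rose in P28 against P12 (median -1.07), and 39 fell and 6 rose in P28 against P1 (median -0.35). The difference between these lists and the 36 genes was not tested. Among 30 further kinetochore and centromere genes 14 rose, 27 then fell and 10 fell against P1. Ska1, of the complex that helps kinetochores follow microtubule ends, rose by 1.42 ± 0.23 (SE, adjusted p = 0.0025) and then changed by -1.71. Spc24, of the Ndc80 complex, rose by 1.36, and its partner Spc25 changed by -1.77 from P12 to P28.

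Of 13 further genes of the spindle checkpoint, chromosomal passenger complex and cohesion, 7 rose, 11 then fell and 7 fell against P1. Esco2, which acetylates cohesin in S phase, rose by 1.59 and then changed by -1.69. Sgo2a, a shugoshin that protects centromeric cohesion, rose by 1.27 and then changed by -1.91. Pttg1, securin, the inhibitor of separase, went the other way, with values of 10.14, 10.47, 11.12 and 10.90 at P1, 10.77, 10.91, 11.04 and 10.87 at P12 and 11.76, 11.82 and 11.73 at P28. All its P28 arrays were above all others, with a change of 0.87 against P12 and 1.11 ± 0.19 (SE, adjusted p = 0.000339) against P1. Espl1, separase itself, changed by -1.71 against P12 and -0.89 against P1.

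Condensin genes, whose products compact chromosomes, rose in 5 of 8 cases, fell to P28 in 7 and fell against P1 in 5. Ncapg rose by 1.25 and then changed by -1.85, and Smc2 changed by -1.62 against P12 and -0.91 against P1. In the 22 further spindle and motor genes 9 rose, 19 then fell and 8 fell against P1. Tacc3 rose by 1.09, and Kif15, a kinesin that can act beside Kif11, changed by -1.62 against P12 and -1.35 against P1. Of 9 further cytokinesis genes 5 rose, 5 then fell, and against P1 2 fell and 2 rose. Cit, citron kinase of the midbody, rose by 1.20 and then changed by -1.78. Rhoa, the GTPase of the contractile ring and of many other structures, was 0.59 higher in P28 than in P1.

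Regulators of mitotic entry and exit rose in 8 of 23 cases, fell to P28 in 14, and against P1 fell in 4 and rose in 2. Cdc25a, the phosphatase that opens S phase and mitosis, changed by -1.32 ± 0.14 (SE, adjusted p = 3.05e-06) against P1. Ube2s, the enzyme that extends ubiquitin chains begun by Ube2c, was 0.89 ± 0.19 higher in P28 than in P1 (SE, adjusted p = 0.0019). Its change from P12 to P28, 0.36 (adjusted p = 0.173), did not pass. Of 6 MuvB and B-Myb genes 2 rose to P12, 5 fell and 1 rose to P28, and 3 fell and 1 rose against P1. Mybl2, B-Myb, rose by 0.65 and then changed by -1.04, and Lin37 was 0.54 higher in P28 than in P1.

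DNA replication genes, which act before mitosis in the cycle, rose to P12 in 4 of 39 cases (median 0.42), fell to P28 in 32 (median -0.91), and against P1 fell in 21 and rose in 1 (median -0.55). G1 cyclins and their kinases, 8 genes, did not move as a group, with 2 up and 2 down to P12, 1 up and 4 down to P28, and 1 up and 3 down against P1. Ccnd1, cyclin D1, rose by 1.65 ± 0.20 (SE, adjusted p = 0.000227) to P12 and was 1.73 higher in P28 than in P1. Ccne1, cyclin E1, changed by -0.88 ± 0.18 (SE, adjusted p = 0.00925) to P12 and by -2.13 ± 0.19 (SE, adjusted p = 1.77e-06) from P12 to P28.

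Of 7 genes for CDK inhibitors, 1 rose to P12, 1 fell to P28, and against P1 2 rose and 1 fell. Cdkn2c rose by 1.05 ± 0.18 (SE, adjusted p = 0.00382) to P12 and was 0.65 higher in P28 than in P1, and Cdkn2d was 1.26 ± 0.26 (SE, adjusted p = 0.00145) higher in P28 than in P1. Cdkn2b changed by -1.07 ± 0.20 (SE, adjusted p = 0.000748) from P12 to P28 and by -0.57 against P1. Cdkn1a, Cdkn1b, Cdkn1c and Cdkn2a did not pass in any of the 3 comparisons, with changes in P28 against P12 of -0.25, -0.28, -0.54 and -0.15.

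The 12 genes outside the 36 whose level over the 11 arrays was most like their mean had Pearson correlations of 0.971 to 0.996, given as a description over arrays that share ages. They were Pbk, Ncapg, Ckap2l, Mad2l1, Aspm, Ncapd2, Sgo1, Ska1, Cdca8, Iqgap3, Kif4 and Knstrn, and 10 of the 12 belonged to the lists above, all except Iqgap3 and Knstrn. Pbk, a mitotic kinase, changed by 1.10 to P12 and -1.61 from P12 to P28, and Mad2l1, the Mad2 checkpoint protein, by 0.97 and -1.58.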

How the data were processed

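Gene expression was measured on 11 Affymetrix Mouse430_2 arrays of GFP-sorted muscle cells, grouped by the age in their titles. The authors deposited log2 values per probe set, and the submitters' processing notes name Affymetrix Expression Console, RMA and affy, with no version, role or order. Arrays give no read depth, and their number limits the precision. Of 45101 probe sets, 34958 carried 1 gene symbol in the platform annotation, 932 several and 9211 none, and 64 manufacturer controls were left out. The symbols of 34741 were matched to RefSeq by Entrez identifier, with 0 updated. The probe set with the highest mean over 11 arrays stood for each of 18193 genes, 9010 of which had several.

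Ages were compared with limma 3.58.1 in R 4.3.3 on group means over all arrays (8 residual and 6.62 prior degrees of freedom), two-sided, with Benjamini-Hochberg adjustment over 18193 genes. A gene rose or fell at an adjusted p under 0.05. The fit was tested on simulated data. The members and lists were chosen with earlier results of these data known. All members could be named. Values on every array are given for the 2 with the smallest F-test p in each role group and for those that passed against the median direction. Of other mitosis lists, up to 3 genes with the largest change that passed were named per list and comparison. Of the comparison lists only Ccnd1, Ccne1 and the CDK inhibitors were named, with the 12 genes most like the members' mean. Pttg1 and Ube2s are also given in comparisons where this rule did not name them.

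Of 304 list memberships, 13 were not measured for want of a probe set with 1 symbol. Same-numbered P1 and P12 arrays deviated together from their age means in 4 of 4 pairs (r = 0.145 to 0.339), while pairs with P28 gave -0.0851 to 0.129. Arrays with other numbers within replicates 1 and 2 or 3 and 4 gave 0.144 to 0.248. Pairing by number therefore cannot be told apart from a shared difference between replicates 1 and 2 and replicates 3 and 4. The main fit had no pairing term, and the replicate block, an alternative, also gave the P28 arrays their numbers. Alternatives were median centring, quantile normalization, other choices of probe set, dim probe sets left out, array weights, other eBayes options, fits of 2 ages, replicate and array set blocks, the Gapdh covariate and each array left out. Promoter windows are from RefSeq on GRCm38.p6.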

Additional observations from a re-analysis of the deposited data

Results flagged for a closer look

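The 74 groups of 4 arrays examined for outliers hold genes that moved together on the same arrays. They are not independent, so the share of about 5% that chance gives for independent groups is no yardstick here. In 9 of the 74, 1 array stood apart from the other 3 by more than Dixon's critical value allows. In 8 of the 9 it was P1 replicate 1, the lowest array for Ccnf (6.33), Aurka (7.14), Bub1b (8.09), Cenpa (8.15), Cenpe (7.22), Birc5 (6.93), Nusap1 (8.46) and Hmmr (7.76). The ninth was P12 replicate 4, the highest array for Racgap1 (9.66). P1 replicate 1 also had the highest neutrophil marker mean of its age (7.28). Its satellite cell (9.91), endothelial (6.50), pericyte and smooth muscle (8.67), erythroid (4.86) and Schwann cell and melanocyte (6.26) means were also the highest. Its macrophage (6.64) and mast cell (5.41) means were the lowest. The part of these in its low mitosis values was not tested.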

How the results depend on the processing

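The medians of the 36 genes kept their sign in every alternative run, from 0.79 to 1.07 in P12 against P1, -1.64 to -1.18 in P28 against P12 and -0.73 to -0.36 in P28 against P1. The 25 rises to P12 became 15 after quantile normalization, 0 within replicates 1 and 2, 15 within replicates 3 and 4, and 10 to 31 with 1 array left out. The 13 falls against P1 became 21 after quantile normalization, 7 with the Gapdh covariate and 6 to 20 with 1 array left out. The 34 falls to P28 stayed between 30 and 35. The replicate block gave 25, 34 and 11, and apart from the 4 calls named for P12 against P1 and the 2 in P28 against P1 it changed no other call. Of 2553 values of single genes under alternatives, 2232 kept direction and side of the threshold, 206 lost the call, 92 gained one and 23 changed sign, 3 of them in P28 against P12 and 20 in P28 against P1.

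The sign changed for Ube2c from P12 to P28 with the replicate block (0.0040) and in the range -0.38 to 0.12 with 1 array left out. In P28 against P1 it changed for Ccnb2 after median centring (-0.087), after quantile normalization (-0.16) and with 1 array left out (-0.24 to 0.36). It changed for Anln (0.032) and Racgap1 (0.18) with the mean of probe sets, for Aurka (0.0015) and Racgap1 (0.039) with the replicate block, and for Birc5 with the Gapdh covariate (-0.20). With 1 array left out it changed for Aurka (-0.39 to 0.28), Cenpa (-0.44 to 0.16), Kif20a (-0.50 to 0.33), Nuf2 (-0.38 to 0.10), Prc1 (-0.52 to 0.085), Racgap1 (-0.33 to 0.30) and Tpx2 (-0.48 to 0.11). None of the genes whose sign changed in P28 against P1 passed in that comparison in the main fit with all arrays. The cause was not tested. Few arrays limit the precision, and a change that did not pass is not shown to be absent.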
